A study of Homo sapiens with 12 samples.

Results

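The comparison asked what 4 Gy of gamma radiation changed in gene expression in SBC5 cells 3 days later, with olaparib held as a covariate. SBC5 is an established line of human small cell lung cancer, labelled wild type, and olaparib inhibits the DNA repair enzymes PARP1 and PARP2. The irradiated class held 5 libraries: radiation 1 and 2 (solvent DMSO, then 4 Gy) and combination 1, 2 and 3 (1 µM olaparib, then 4 Gy). The unirradiated class held 4: vehicle 1, 2 and 3 (DMSO, 0 Gy) and olaparib 1 (1 µM olaparib, 0 Gy). Drug or solvent was given 2 hours before the time of irradiation. These 9 were taken from the 12 libraries of the series by their labels, leaving out 3 (olaparib 2, olaparib 3 and radiation 3). In those 3, the summed counts per 1000000 of olfactory receptor genes, a background measure, exceeded 1.5 times the median of the 12. Olaparib without radiation was thus represented by 1 library, against which the 3 combination libraries were set.

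Ionizing radiation breaks DNA, and cells answer by halting the cycle, repairing the breaks and inducing stress response genes. A separate branch of stress signalling, the integrated stress response, slows general translation while the transcription factor ATF4 induces genes for amino acid supply and tRNA charging. The mitochondrial genome, which encodes core subunits of the respiratory chain, is transcribed by a polymerase of its own.

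Total counts, in units of 1000000, ran from 27.0 to 38.8 in the unirradiated libraries and from 19.4 to 30.0 in the irradiated ones, so low genes were measured less precisely after radiation. Levels are given as CPM (counts per 1000000, scaled by the TMM factors of edgeR), except that olfactory receptor sums used total counts only. These sums over 404 genes were 354.7 to 501.4 CPM in the 9 libraries and 1896.7, 2097.8 and 920.2 in the 3 left out. Markers of neuroendocrine small cell lung cancer were mixed. Synaptophysin (SYP) had 16.5 to 27.4 CPM and NEUROD1 0.439 to 3.28, NCAM1 and DLL3 reached 1.31 and 0.75 CPM, INSM1 and CHGA stood at 0.538 CPM or less in every library of the comparison, and none was called. Of the non-neuroendocrine markers, YAP1 (84.1 to 124 CPM), REST (215 to 251 CPM) and MYC (14.8 CPM or more) were present and POU2F3 reached 1.22 CPM. CD3E and LYZ of leukocytes, KRT18 of epithelium and SFTPC of alveoli were at or below 0.534 CPM, CD68 had 78.7 to 100 CPM, and no epithelial, leukocyte, fibroblast, endothelial or airway marker was called. The sources do not say whether libraries came from separate cultures, so the p-values measure the spread between these libraries, which may be technical.

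Radiation was followed by small changes in many genes. Of 23878 genes tested, edgeR's quasi-likelihood test with Benjamini-Hochberg adjustment called 214 higher (0.896% of those tested) and 414 lower (1.73%) in irradiated cells at an adjusted p under 0.05, and 3126 had an unadjusted p under 0.05. Called changes were small, with a median size of 0.44 log2 units, and reached 1 unit in 23 of the higher and 18 of the lower genes. Irradiated libraries lay wholly on one side of the unirradiated ones at each olaparib level for 205 of the 214 and 384 of the 414. That separation was also seen in 5.16% (above) and 6.05% (below) of all genes tested, and all 5 irradiated libraries were above all 4 unirradiated ones in 3.15% and below them in 4% of genes. Many of the called genes named below were taken only if their libraries were apart in this way at each olaparib level. For them a lack of overlap follows largely from that choice and adds no support. Counts of called members of a gene list are to be read against the shares of 0.896% and 1.73%. Adjusted p-values below come from this test unless another is named, changes are log2 values, and SE is the standard error.

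**Figure D1:**
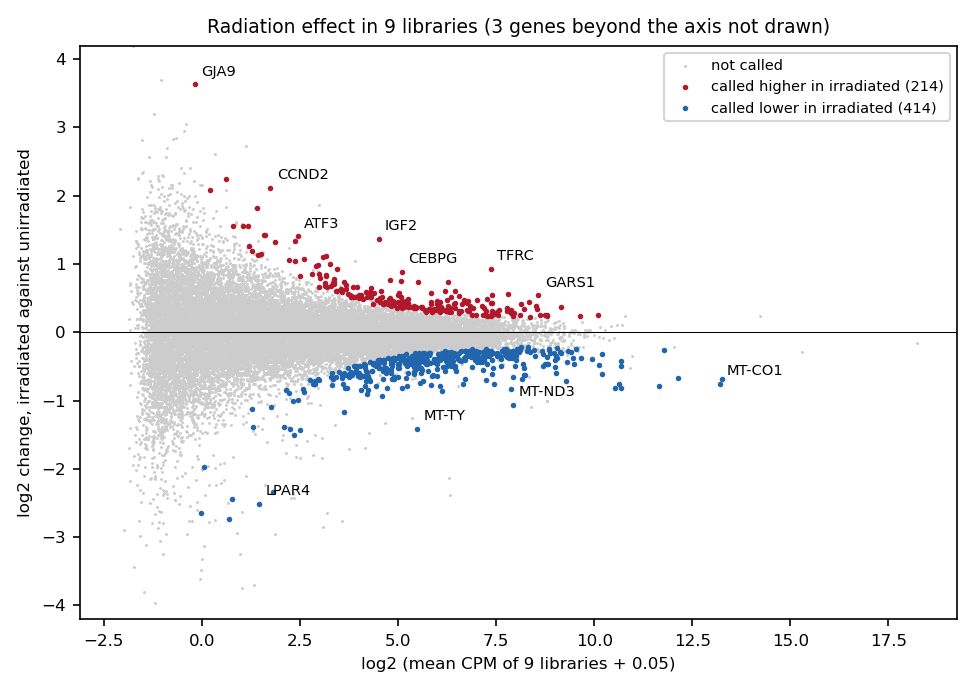
Log2 change in irradiated against unirradiated cells (vertical axis) by log2 of the mean CPM of the 9 libraries plus 0.05 (horizontal axis), 1 point per gene. Most of the 214 genes called higher (red) and 414 called lower (blue) lie within 1 log2 unit of 0, and 3 genes beyond 4.2 log2 units are not drawn.

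The balance of directions depended on the scaling and the libraries. Scaling by library size only moved the median change of all genes from 0.00 to 0.11 and called 776 genes higher (3.25%) and 193 lower (0.808%), so the share called higher went from 34.1% to 80.1%. All 628 called genes kept their sign there, and all 214 higher but 193 of the 414 lower ones kept their call. With all 12 libraries only 6 genes were called (5 higher, 0.0212%, and 1 lower, 0.00424%): IGF2, CARS1, HES1, AEN and PLEKHH2 were higher and SEMA3A lower, with 1852 genes at an unadjusted p under 0.05, and 621 of the 627 called genes with a value kept their sign. With all 12 and a covariate for the olfactory receptor sum, 201 of the 214 and 302 of the 414 were called again, among 713 higher (3.02%) and 438 lower (1.86%). Without olaparib 1 the counts were 99 and 172, without radiation 2 they were 117 and 192, and without vehicle 3 they were 138 and 283. The libraries without olaparib alone gave 63 (0.247%) and 127 (0.497%). Those with olaparib alone, where the single unirradiated library is assumed to vary like the others, gave 182 (0.688%) and 523 (1.98%). Each of the 628 genes had the same sign in both of these subsets. They were called from these same libraries, so a shared sign is largely set by that choice and adds no support.

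The clearest group to fall was the mRNAs encoded by the mitochondrial genome. All 13 were measured, 12 of them fell, none rose, and the median change was -0.72 against 0.00 for all genes tested. MT-ND3, part of respiratory complex I, had 347, 362 and 359 CPM in vehicle 1 to 3, 323 in olaparib 1, 184 and 182 in radiation 1 and 2, and 140, 144 and 135 in combination 1 to 3. The lowest unirradiated library was thus well above the highest irradiated one, and the change was -1.06 (SE 0.0641, adjusted p = 5.28e-11). For MT-CO2, a core subunit of cytochrome c oxidase, the values were 4394, 4087 and 4687 CPM in vehicle, 3903 in olaparib 1, 2574 and 2540 in radiation, and 2282, 2318 and 2256 with the combination. It fell by 0.78 (SE 0.0536, adjusted p = 4.66e-10), again with no overlap. MT-ATP6, part of ATP synthase, had 2193, 2231 and 1995 CPM in vehicle, 1601 in olaparib 1, 1120 and 1128 in radiation, and 1082, 991 and 1013 with the combination (-0.82, SE 0.0636, adjusted p = 2.97e-09). Its level in olaparib 1 lay between those of vehicle and of the irradiated libraries. Falls of like size were seen in MT-ND4L (-0.81), MT-CO3 (-0.76), MT-CO1 (-0.75), MT-ATP8 (-0.72), MT-ND4 (-0.68) and MT-ND5 (-0.67). The changes of MT-ND2 (-0.61), MT-CYB (-0.49) and MT-ND1 (-0.42) were nearer 0. MT-ND6, which is encoded on the other strand from the rest, had 2076 to 2876 CPM in vehicle, 1863 in olaparib 1 and 1338 to 1678 after radiation (-0.53, SE 0.123, adjusted p = 0.071). It passed without vehicle 3 or combination 1 and with DESeq2 (0.0128). At each olaparib level the libraries were apart for all 13.

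**Figure D2:**
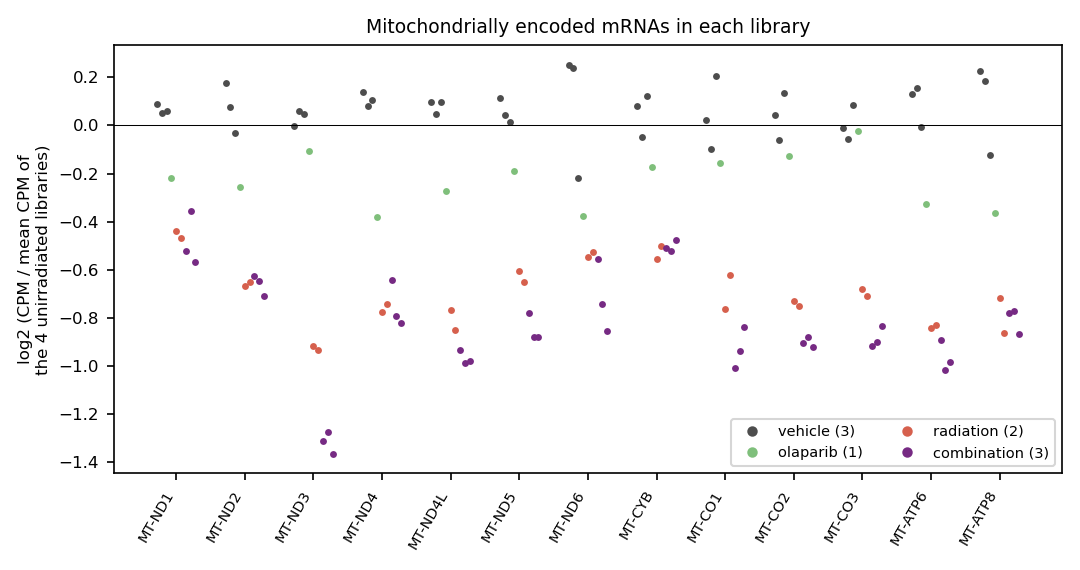
Level of each of the 13 mitochondrially encoded mRNAs in each library, as log2 of its CPM over the mean CPM of the 4 unirradiated libraries, with points coloured by treatment. The 5 irradiated libraries lie below every unirradiated library for each mRNA, and for MT-ND4 olaparib 1 (9641 CPM) lies between them and vehicle (13270 to 13821 CPM).

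The 22 mitochondrial transfer RNA genes, 19 of which passed the count filter, had mostly negative values as well. Of the 19, 8 fell, none rose and 18 were negative, with a median of -1.13. MT-TY had 59.5, 89.8 and 78.4 CPM in vehicle, 54.1 in olaparib 1, 28.3 and 22.9 in radiation, and 24.8, 27.5 and 20.8 with the combination (-1.41, SE 0.14, adjusted p = 4.73e-05). MT-TP (-0.53), MT-TE (-1.17), MT-TL2 (-1.43) and MT-TS1 (-2.34) also fell, MT-TS1 from 2.80 to 10.3 CPM down to 0.809 to 1.44. The call of MT-TL1 (-1.38) ended without olaparib 1 (adjusted p = 0.106) and that of MT-TV (-1.39) without radiation 1 or 2 (0.085 and 0.14). The call of MT-TC (-0.89) ended without vehicle 2 or 3, olaparib 1, radiation 2 or any combination library (0.066 to 0.614) and with library size only (0.0733). These genes lie close to the mRNA and ribosomal RNA genes, MT-ND4 overlaps MT-ND4L and MT-ATP6 overlaps MT-ATP8. The nucleus also holds copies of parts of this genome, so counts of single mitochondrial genes are uncertain. Neither ribosomal RNA was called over the 9 libraries. MT-RNR2 stood at 322214 to 349739 CPM before and 272552 to 318361 after radiation, without overlap (-0.15, SE 0.0448, adjusted p = 0.0767). It passed without vehicle 1 (0.0433) or radiation 1 (0.0102), without a count filter (0.00181) and among the libraries with olaparib alone (-0.26, 4.46e-05), while with library size only it was at -0.04 (0.698). MT-RNR1 had 50305 to 63092 CPM in vehicle, 21340 in olaparib 1, 27698 and 36244 in radiation and 32775 to 38522 in the combination, with opposite signs at the 2 olaparib levels (-0.84 without and 0.70 with the drug). The change without the drug was not called (adjusted p = 0.224), and the change with it rests on olaparib 1 as the only unirradiated library. The difference between the 2 levels (1.54) was not called either.

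Summed over the 13 mRNAs, unirradiated libraries had 42842 to 53887 CPM and irradiated ones 28399 to 31570. With library size only the median was -0.62 with 12 called, and among the libraries without olaparib alone it was -0.74 with 12 called. The left-out libraries differed here. The 13 mRNAs took 3.24% (95% Wilson interval 3.23% to 3.25%) of the counts in olaparib 2 and 3.85% (3.84% to 3.86%) in olaparib 3, both unirradiated, and 3.47% (3.46% to 3.48%) in radiation 3. The share was 4.23% to 5.05% in the unirradiated and 3.05% to 3.20% in the irradiated libraries used. These intervals cover counting error only. With all 12 libraries the median was -0.48 and none of the 13 was called, and with the olfactory receptor covariate it was -0.59 with 11 called. In bulk RNA, fewer cells with much of a transcript cannot be told apart from less of it in each cell.

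The clearest groups to rise were genes of tRNA charging and of amino acid supply. Of 20 cytosolic tRNA synthetases, which attach amino acids to transfer RNAs, 8 rose and none fell (40.0%, against 0.896% of all genes), with a median of 0.23. Of 28 tested genes of the ATF4 and amino acid stress list, 9 rose and none fell (32.1%), with a median of 0.33. With library size only the medians were 0.33 and 0.44. With all 12 libraries 1 synthetase and none of the ATF4 list were called, and with the olfactory receptor covariate 10 and 12. ATF4 itself had 128 to 158 CPM before and 142 to 169 after radiation (0.06, SE 0.0737, adjusted p = 0.836), a value whose sign turned without radiation 1 (-0.02) and that passed with all 12 libraries and the covariate (0.22, adjusted p = 0.0342).

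Targets of ATF4 often carry an 8-letter element, TGATGNAA on one strand or TTNCATCA on the other, at which ATF4 pairs with a C/EBP partner such as CEBPG. RefSeq promoters (GRCh38.p14, 250 bases before to 50 after each gene start) were searched for it on both strands. It was present in 7.32% of 164 promoters of genes called higher, 1.29% of 310 of genes called lower, 1.92% of 13416 of genes tested, and 3.67% of all 27305. Among tRNA synthetases it was found in 5 of 7 promoters of called genes and in 1 of 9 of those not called. On the ATF4 list it was found in 2 of 9 called and 3 of 14 others. A match describes the letters in the window and shows no binding. The 7 called members of these lists with a match are printed so that the element can be compared between genes that rose. Each window has 60 bases, is written in the direction of its gene, and has the element in capitals.

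AARS1: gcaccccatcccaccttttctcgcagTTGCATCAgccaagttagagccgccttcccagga
CARS1: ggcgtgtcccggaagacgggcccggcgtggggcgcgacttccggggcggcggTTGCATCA
IARS1: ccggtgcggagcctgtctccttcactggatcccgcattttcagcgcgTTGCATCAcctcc
MARS1: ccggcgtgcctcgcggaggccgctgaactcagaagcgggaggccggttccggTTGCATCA
TARS1: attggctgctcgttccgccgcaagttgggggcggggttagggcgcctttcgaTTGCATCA
ASNS: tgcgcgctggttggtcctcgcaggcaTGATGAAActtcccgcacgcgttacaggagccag
ATF3: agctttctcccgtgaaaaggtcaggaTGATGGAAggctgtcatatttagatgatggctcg

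These windows lie at chr16:70289660-70289719 (AARS1, minus strand), chr11:3057418-3057477 (CARS1, minus), chr9:92293698-92293757 (IARS1, minus), chr12:57488012-57488071 (MARS1, plus), chr5:33440915-33440974 (TARS1, plus), chr7:97872443-97872502 (ASNS, minus) and chr1:212565190-212565249 (ATF3, plus). In the 5 synthetases the element reads TTGCATCA, and in CARS1, IARS1, MARS1 and TARS1 it lies within 13 bases of the gene start.

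CARS1, which charges the cysteine tRNA, had 28.7, 31.5 and 33.9 CPM in vehicle, 33.9 in olaparib 1, 46.2 and 54.6 in radiation, and 58.4, 60.6 and 61.6 with the combination. All irradiated libraries were above all unirradiated ones, and the rise was 0.74 (SE 0.0889, adjusted p = 9.58e-06). TARS1, the threonine enzyme, had 125, 140 and 130 CPM in vehicle, 144 in olaparib 1, 196 and 199 in radiation, and 207, 190 and 193 with the combination (0.54, SE 0.0662, adjusted p = 1.34e-05). AARS1 (0.56), GARS1 (0.54) and SARS1 (0.47), for alanine, glycine and serine, rose too and were called without each library in turn, as CARS1 and TARS1 were. The call of MARS1 for methionine (0.57) ended without olaparib 1 (0.0571), that of IARS1 for isoleucine (0.34) without radiation 2 (0.0598), and that of YARS1 for tyrosine (0.37) without olaparib 1 (0.176) or radiation 2 (0.086).

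On the ATF4 list, CEBPG, the dimer partner of ATF4, had 18, 24.2 and 25.4 CPM in vehicle, 24.2 in olaparib 1, 40.0 and 46.3 in radiation, and 45.1, 39.9 and 44.1 with the combination. The classes did not overlap, and the rise was 0.89 (SE 0.106, adjusted p = 7.67e-06). ASNS, which makes asparagine, had 44.3, 52.5 and 64.3 CPM in vehicle, 58.7 in olaparib 1, 84.4 and 92.8 in radiation, and 98.8, 95.6 and 109 with the combination (0.74, SE 0.0925, adjusted p = 1.85e-05). ATF3, a stress-induced transcription factor, had 1.90, 1.87 and 3.51 CPM in vehicle, 3.13 in olaparib 1, 6.99 and 5.84 in radiation, and 7.97, 9.96 and 7.28 with the combination (1.41, SE 0.236, adjusted p = 0.000631). All 3 had their unirradiated libraries below their irradiated ones. STC2, a secreted glycoprotein, rose by 0.60 and XPOT, which exports tRNA from the nucleus, by 0.34. PSAT1 of serine synthesis rose by 0.78, but not without olaparib 1 (adjusted p = 0.0759) or radiation 2 (0.0696). SLC7A5, which imports large neutral amino acids, had 9.66 to 12.5 CPM before and 13.8 to 22.6 after radiation and rose by 0.67 (SE 0.155, adjusted p = 0.0143), but not without olaparib 1 (0.37) or radiation 2 (0.0619). MTHFD2 of mitochondrial one-carbon metabolism (0.31) lost its call without vehicle 1, radiation 1 or radiation 2 (0.0522 to 0.0644). DDIT3, the stress factor CHOP (0.46), lost it without vehicle 2 or 3, radiation 1 or 2 or combination 1 (0.0514 to 0.134), and its libraries overlapped. SESN2 was at 0.476 to 1.78 CPM before and 2.35 to 3.61 after radiation (1.24, SE 0.363, adjusted p = 0.0657), and passed with library size only (0.0307) and limma-voom (0.0329).

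**Figure D3:**
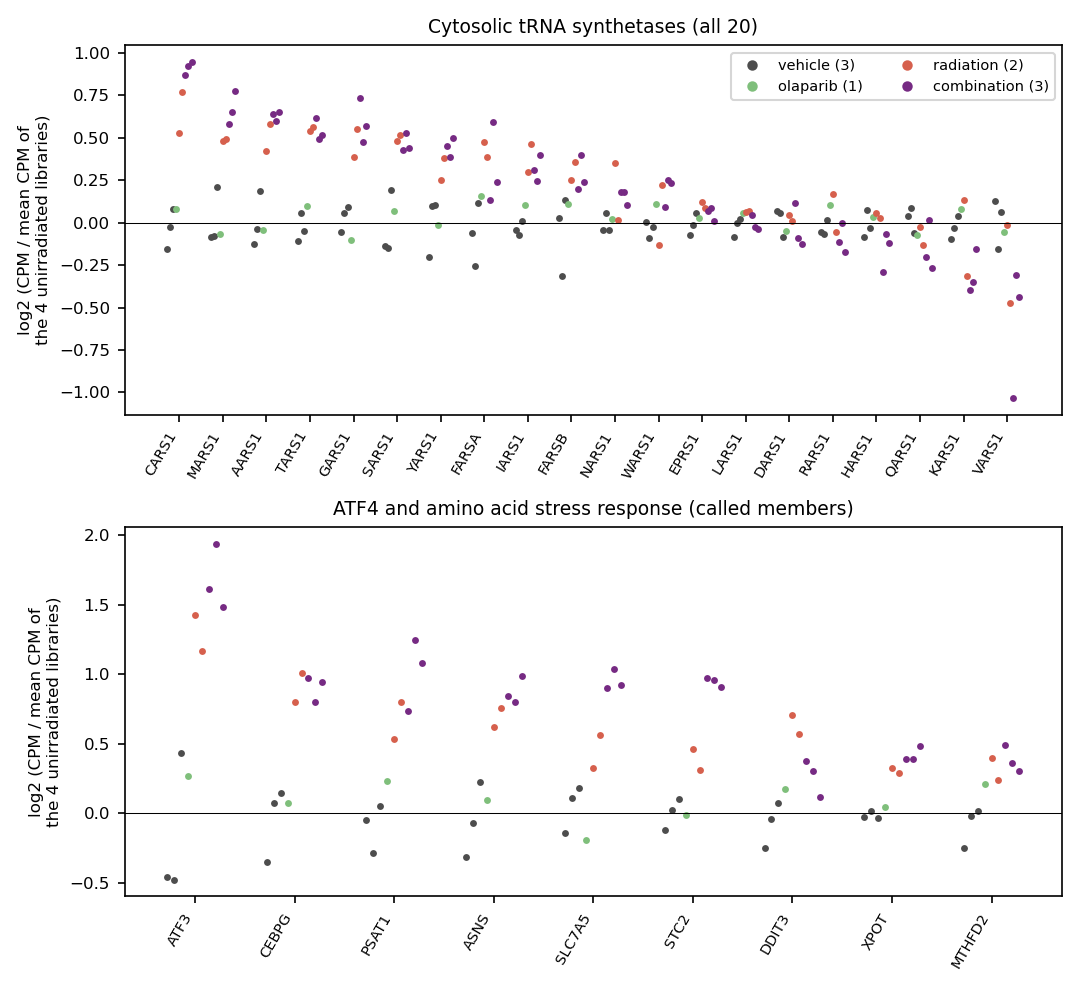
Level of the 20 cytosolic tRNA synthetases and of the 9 called members of the ATF4 list in each library, as log2 of CPM over the mean of the 4 unirradiated libraries, with points coloured by treatment. For CARS1, TARS1, CEBPG and ASNS the 5 irradiated libraries lie above the 4 unirradiated ones, and for DDIT3 they overlap.

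Single genes of growth and cell surface signalling also changed. TFRC, the transferrin receptor that takes up iron, had 92.0, 116 and 118 CPM in vehicle, 105 in olaparib 1, 170 and 213 in radiation, and 214, 240 and 227 with the combination. With no overlap it rose by 0.93 (SE 0.0934, adjusted p = 6.02e-06). IGF2, which encodes insulin-like growth factor 2, had 13.7, 12.1 and 12.1 CPM in vehicle, 8.80 in olaparib 1, 23.7 and 26.7 in radiation, and 38.5, 35.3 and 33.4 with the combination. It rose by 1.37 (SE 0.161, adjusted p = 3.19e-05), a 2.58-fold change. IGF1R, the receptor of insulin-like growth factors, had 253 to 299 CPM before and 196 to 224 after radiation and fell by 0.38 (SE 0.0663, adjusted p = 0.00086). These were the called genes among 15 tested of the insulin-like growth factor axis, whose median was -0.13.

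CCND2, the G1 cyclin D2, had 0.908, 1.14 and 0.669 CPM in vehicle, 1.28 in olaparib 1, 4.25 and 3.16 in radiation, and 3.94, 9.01 and 5.42 with the combination. It rose by 2.12 (SE 0.313, adjusted p = 0.000135) and was the only called gene among 19 cyclin-dependent kinase inhibitors and G1 cyclins, whose median was -0.11. HES1, a repressor induced by Notch, had 3.40, 3.36 and 3.28 CPM in vehicle, 3.73 in olaparib 1, 6.01 and 6.83 in radiation, and 8.79, 8.21 and 10.3 with the combination. It was higher in every irradiated library (1.07, SE 0.204, adjusted p = 0.00253, and 0.063 without olaparib 1). Of 22 Notch pathway genes 2 rose (9.09%) and 1 fell (4.55%). The receptor NOTCH2 also rose (0.31), but not without vehicle 1 or 2 or radiation 1 or 2 (adjusted p = 0.0564 to 0.0755). The coactivator MAML2 fell (-0.36), but not without olaparib 1 (0.0609). The median of the Notch list was -0.10, and 0.01 with library size only.

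Of 29 tested p53 targets 2 rose (6.9%, against 0.896% of all genes) and none fell, with a median of 0.06. None was called among the libraries without olaparib alone. AEN, an apoptosis-enhancing nuclease, had 5.10, 4.76 and 5.80 CPM in vehicle, 5.51 in olaparib 1, 9.62 and 8.63 in radiation, and 10.3, 10.2 and 10.9 with the combination (0.85, SE 0.174, adjusted p = 0.00499). PMAIP1, the BH3-only protein NOXA and the only call among 23 apoptosis regulators, had 6.79 to 7.58 CPM before and 10.3 to 14.1 after radiation (0.68, SE 0.161, adjusted p = 0.0176). The classes were apart for both, but AEN lost its call without olaparib 1 (0.072) and PMAIP1 without vehicle 3, olaparib 1 or radiation 2 (0.0546 to 0.102). CDKN1A, the cell cycle inhibitor p21, was at 0.478 to 1.04 CPM before and 0.845 to 2.83 after radiation, and these ranges overlapped (0.85, SE 0.434, adjusted p = 0.418). MDM2, a ubiquitin ligase, had 155, 157 and 161 CPM in vehicle, 162 in olaparib 1, 192 and 193 in radiation, and 165, 179 and 193 with the combination. The classes were apart, but the change of 0.23 (SE 0.0667) had an adjusted p of 0.0598. It passed without combination 1 (0.0327), with library size only (0.00189), with DESeq2 (0.00684) and with limma-voom (0.0243). GDF15, at 0.618 CPM or less, did not pass the count filter. MDM4, a paralogue of MDM2 chosen after its values were seen, had 116 to 129 CPM before and 146 to 161 after radiation and rose by 0.38 (SE 0.0683, adjusted p = 0.0016).

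Each of the DNA repair lists held 1 call. Of 34 homologous recombination and Fanconi anemia genes 1 rose (2.94%, against 0.896% of all genes). This was BRCA2, with 90.1, 93.4 and 74.0 CPM in vehicle, 91.8 in olaparib 1, 112 and 106 in radiation, and 145, 125 and 136 with the combination (0.43, SE 0.0815, adjusted p = 0.00252, and 0.0725 without olaparib 1). BRCA1 was at 52.8 to 66.8 CPM before and 61.4 to 81.3 after radiation (0.21, SE 0.0768, adjusted p = 0.17), and passed with library size only (0.012). List medians were 0.07 for homologous recombination, 0.08 for PARP enzymes, and -0.01 for damage checkpoint and end joining genes (0.10 with library size only). PARP1, the enzyme that olaparib targets, had 174, 187 and 208 CPM in vehicle, 195 in olaparib 1, 169 and 153 in radiation, and 142, 164 and 140 with the combination (-0.30, SE 0.0735, adjusted p = 0.0243). This fall, the only call among 21 PARP genes (4.76%, against 1.73%), ended with library size only (0.154) and without vehicle 3, olaparib 1, radiation 2 or combination 3 (0.0552 to 0.237). XRCC6, the Ku70 subunit of end joining, was the only call among 29 damage checkpoint and end joining genes (3.45%), with a fall of small size (-0.22, adjusted p = 0.0471). It ended with library size only (0.356) and without any single library but radiation 1 (0.0516 to 0.224).

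Replication-dependent histone mRNAs, which are made in S phase, were lower. Of 53 tested, 10 fell and none rose (18.9%, against 1.73% of all genes), 47 had a negative value and the median was -0.46. With library size only the median was -0.35, with 6 called lower and 1 higher. H2BC12 had 15.6, 15.7 and 18.7 CPM in vehicle, 19 in olaparib 1, 13.1 and 9.99 in radiation, and 7.38, 8.25 and 8.13 with the combination. The combination libraries were the lowest (-0.82, SE 0.153, adjusted p = 0.00211). H1-4, a linker histone, had 45.1 to 57.2 CPM before and 29.8 to 43.4 after radiation (-0.51), H2AC20 had 39.5 to 57.7 and 23.4 to 38.9 (-0.67), and H2BC3 had 4.78 to 7.94 and 3.00 to 4.12 (-1.0). All 4 calls ended without olaparib 1 (adjusted p = 0.219, 0.363, 0.151 and 0.24), and that of H2AC20 also without radiation 2 (0.0642). None of the 53 was called among the libraries without olaparib alone, where the median was -0.34. Among those with olaparib, where olaparib 1 was the only unirradiated library, the median was -0.65. The difference between these medians was not tested. Histone genes have near-identical copies, so single members are uncertain. Summed over the list, levels were 728 to 869 CPM before and 552 to 708 after radiation.

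The other proliferation lists had medians near 0. Of 45 DNA replication genes CCNE2 (cyclin E2) rose by 0.63 and TYMS (thymidylate synthase) fell by 0.42, with a median of 0.03. The call of CCNE2 ended without vehicle 2, olaparib 1 or radiation 1 (adjusted p = 0.0559 to 0.234), and that of TYMS without vehicle 2 or 3 or radiation 1 or 2 (0.056 to 0.164) and with library size only (0.101). Of 43 G2/M and mitosis genes 2 rose, and the median was 0.00. CENPF, a kinetochore protein, had 466, 490 and 475 CPM in vehicle, 498 in olaparib 1, 627 and 580 in radiation, and 656, 675 and 678 with the combination, with no overlap (0.37, SE 0.0585, adjusted p = 0.000273). CKAP2, a spindle protein, rose by 0.24 (adjusted p = 0.0416) and lost its call without any single library but combination 2 (0.0513 to 0.159).

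Nuclear genes of respiration and ribosomes had mostly negative values. Of 61 nuclear-encoded respiratory chain subunits 10 fell and none rose (16.4%, against 1.73% of all genes), 60 were negative and the median was -0.25. Without olaparib none of the 61 was called and the median was -0.14. With olaparib, where olaparib 1 was the only unirradiated library, it was -0.45. COX7A2, a subunit of cytochrome c oxidase, had 47.8, 56.7 and 52.4 CPM in vehicle, 54.4 in olaparib 1, 43.5 and 32.9 in radiation, and 32.6, 33.7 and 34.5 with the combination (-0.55, SE 0.0946, adjusted p = 0.000883). CYC1, cytochrome c1, fell by 0.71 and NDUFA1 of complex I by 0.54. These calls ended without olaparib 1 (0.0503 for COX7A2, 0.156 for CYC1 and 0.0933 for NDUFA1). Of 79 cytosolic ribosomal proteins 13 fell and none rose (16.5%, again against 1.73%), 76 were negative and the median was -0.25. RPL38 had 292, 322 and 331 CPM in vehicle, 286 in olaparib 1, 247 and 217 in radiation, and 219, 183 and 182 with the combination (-0.49, SE 0.0717, adjusted p = 0.000135). RPS12 (-0.37) fell too, but not without olaparib 1 (0.117). With library size only the medians of the respiratory and ribosomal lists were -0.14 (6 called) and -0.15 (4 called). Without olaparib the ribosomal median was -0.10 with 2 lower, and with olaparib, again against olaparib 1 alone, it was -0.52. The differences between these medians were not tested for either list. Ribosomal protein genes have many pseudogenes to which reads can be assigned.

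Of 43 translation initiation and elongation factors 2 rose (4.65%, against 0.896% of all genes) and 6 fell (14%, against 1.73%), with a median of -0.12. EIF5, which acts in start codon recognition, had 67.1, 69.3 and 66.8 CPM in vehicle, 65.4 in olaparib 1, 106 and 92.8 in radiation, and 109, 103 and 104 with the combination. The classes were apart (0.61, SE 0.0738, adjusted p = 1.08e-05). EIF2S2, the beta subunit of eIF2, had 124 to 155 CPM before and 173 to 206 after radiation (0.43, SE 0.0747, adjusted p = 0.000897). EIF5A, an elongation factor, had 25.8 to 30.0 CPM before and 17.5 to 21.6 after radiation (-0.52, adjusted p = 0.00755), a fall that ended without olaparib 1 (0.0531) or radiation 2 (0.0669). With library size only, 1 factor was called lower.

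Transcript length moved with these groups. Over 14642 protein-coding genes the median change was -0.07 for transcripts under 1 kb, -0.01 at 1 to 2 kb, 0.00 at 2 to 4 kb and 0.03 over 4 kb. Of the lists, 72 of 79 ribosomal proteins, 48 of 61 respiratory subunits and 34 of 51 histones with a length were under 1 kb. The part of length in these results was not tested.

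**Figure D4:**
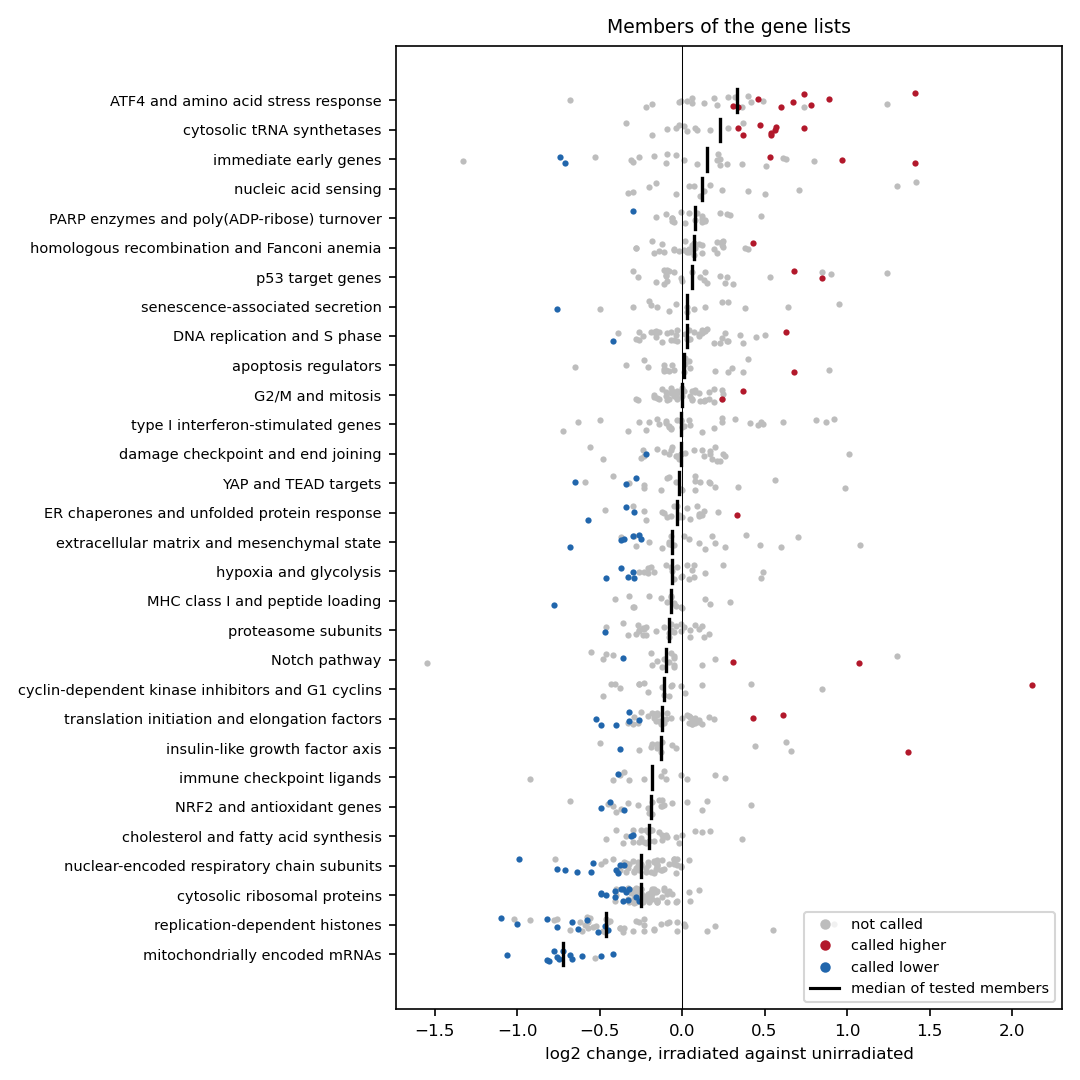
Log2 change of each tested member (points) of the gene lists with at least 5 tested genes, in irradiated against unirradiated cells, with the median of each list as a black bar. Mitochondrially encoded mRNAs have the lowest median (-0.72) and the ATF4 list the highest (0.33), and the interferon-stimulated genes hold no called member.

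Genes of signalling, adhesion and the matrix held some of the falls of smallest p. HGF, hepatocyte growth factor, had 223, 221 and 240 CPM in vehicle, 229 in olaparib 1, 155 and 130 in radiation, and 132, 115 and 123 with the combination, with no overlap (-0.76, SE 0.0723, adjusted p = 1.46e-07). It was the only call among 17 tested secreted factors of senescence, whose median was 0.03. ZFP36L1, which marks mRNAs for decay, had 62.8, 61.8 and 63.5 CPM in vehicle, 58.4 in olaparib 1, 38.3 and 35.8 in radiation, and 34.3, 35.9 and 36.2 with the combination (-0.74, SE 0.0791, adjusted p = 1.39e-06). DUSP6, a phosphatase that restrains ERK, fell by 0.71 (SE 0.0861, adjusted p = 1.08e-05). Both are among 26 immediate early genes, of which ATF3, KLF10 (0.53) and JUN (0.97) rose, JUN not without olaparib 1 (0.062). The list's median was 0.15. EGR1 of the same list had 45.8, 45.4 and 44.1 CPM in vehicle, 21.2 in olaparib 1, 12.1 and 12.5 in radiation, and 13.8, 21.2 and 13.2 with the combination, and did not pass (-1.33, SE 0.337, adjusted p = 0.128). It passed without olaparib 1 (-1.88, adjusted p = 4.97e-08) or combination 2 (-1.44, 0.0061), with DESeq2 (0.00108) and among the libraries without olaparib alone (-1.87, 9.79e-08).

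CCN2, a matricellular YAP target, had 327, 325 and 335 CPM in vehicle, 269 in olaparib 1, 220 and 179 in radiation, and 192, 181 and 187 with the combination (-0.65, SE 0.0701, adjusted p = 1.81e-06). Of 24 YAP and TEAD targets 3 fell (12.5%, against 1.73% of all genes), the others being RBMS3 (-0.34) and YAP1 itself (-0.28). The median was -0.02, and 0.09 with library size only, when YAP1 was not called (0.18). YAP1 also lost its call without vehicle 2, olaparib 1, radiation 2 or combination 3 (0.0526 to 0.0939). Of 28 matrix and mesenchymal genes 6 fell and none rose (21.4%, against 1.73%), with a median of -0.06 that became 0.05 with library size only. Among the libraries without olaparib, 1 of 27 fell. Among those with olaparib, where olaparib 1 was the only unirradiated library, the median was -0.18. The list was not tested for a difference between these sets of libraries. CTSK, cathepsin K, had 337, 373 and 382 CPM in vehicle, 386 in olaparib 1, 272 and 229 in radiation, and 210, 204 and 204 with the combination (-0.68, SE 0.0736, adjusted p = 2.02e-06). The collagen COL5A2 (-0.37) and the integrin ITGAV (-0.30) fell too, but not without olaparib 1 (0.117 and 0.0935), and ITGAV not with library size only (0.0507).

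Of 27 hypoxia and glycolysis genes 5 fell and none rose (18.5%, against 1.73% of all genes), all of them glycolytic enzymes, and 1 was called with library size only. None of the 27 was called among the libraries without olaparib alone, where the median was -0.05. Among those with olaparib, where olaparib 1 was the only unirradiated library, it was -0.21, and the difference was not tested. Over the 9 libraries the median was -0.06, and 0.05 with library size only. PGAM1 had 86.4 to 105 CPM before and 65.4 to 83.6 after radiation (-0.46, SE 0.0844, adjusted p = 0.00194, and 0.058 without olaparib 1). PKM (-0.30) lost its call without vehicle 3, olaparib 1 or radiation 2 (0.074 to 0.229) and with library size only (0.125). PFKP (-0.33) lost it without vehicle 2 or 3, olaparib 1, radiation 2 or combination 3 (0.0591 to 0.213) and with library size only (0.148). Of 24 NRF2 and antioxidant genes 3 fell (12.5%, against 1.73%). Thioredoxin, TXN, had 101 CPM in each vehicle library, 93.2 in olaparib 1, 81.1 and 65.7 in radiation, and 65.0, 63.3 and 65.4 with the combination (-0.49, SE 0.0752, adjusted p = 0.000229). PRDX3 (-0.44) was not called without olaparib 1 (0.259) or radiation 2 (0.075). NQO1 (-0.35) was not called without any 1 of the 9 libraries (0.0512 to 0.429) or with library size only (0.183).

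Of 26 endoplasmic reticulum genes 3 fell (11.5%, against 1.73% of all genes) and 1 rose (3.85%, against 0.896%), with a median of -0.03 and 0.08 with library size only. MANF, a stress-induced secreted factor, had 27.0 to 35.4 CPM before and 18.7 to 21.3 after radiation (-0.57, SE 0.107, adjusted p = 0.00245). The disulfide isomerase PDIA6 fell (-0.29), but not without olaparib 1 (0.347) or radiation 2 (0.105) or with library size only (0.123). HERPUD1, of protein degradation at that membrane, rose (0.33), but not without vehicle 1 or 3 or radiation 1 or 2 (0.0586 to 0.1). Of 32 cholesterol and fatty acid synthesis genes 2 fell (6.25%), 27 were negative and the median was -0.20 (-0.09 with library size only). SREBF2, which drives that pathway (-0.30), was not called with library size only (0.196) or without vehicle 2 or 3, olaparib 1, radiation 2, combination 1 or combination 3 (0.0622 to 0.227).

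Of 35 tested interferon-stimulated genes none was called by edgeR (which called 0.896% of all genes higher and 1.73% lower, so that on a list of this size 0 calls lie near the background), by DESeq2 (which called 7.36% of genes with an adjusted p) or by limma-voom (3.23%), 5 had an unadjusted p under 0.05, and the median was -0.01 (0.10 with library size only). Of 16 nucleic acid sensing genes none was called by these tools, 4 had an unadjusted p under 0.05, and the median was 0.12. ISG15 had 1.14 to 2.25 CPM before and 2.23 to 3.34 after radiation (0.81, SE 0.313, adjusted p = 0.215), and IFI6 was at -0.63 (SE 0.209, adjusted p = 0.121). CGAS, the sensor of cytosolic DNA, had 31.2, 32.7 and 27.0 CPM in vehicle, 29.4 in olaparib 1, 39.8 and 31.4 in radiation, and 34.9, 33.5 and 37.4 with the combination. The classes overlapped (0.24, SE 0.0999, adjusted p = 0.255), and CGAS passed with library size only (0.0416). STING1, its downstream adaptor, was at 1.21 CPM or less in every library (0.50, SE 1.0, adjusted p = 0.919). Of 26 chemokines 3 had enough counts to test, 1 had an unadjusted p under 0.05, and none was called by edgeR, DESeq2 or limma-voom. CXCL10 had 0 counts in all 9 libraries, so levels of up to 0.0782 to 0.145 CPM remain possible, depending on the library (3 counts each). CCL5 was at 0.0897 to 0.496 CPM, and IFNB1 had 3 counts in olaparib 1 and 0 elsewhere. CD274, which encodes PD-L1, was at 0.157 CPM or less before and 0.143 to 0.359 after radiation, on at most 10 counts a library, and was not tested. CXCL10, CCL5 and IFNB1 did not pass the count filter either, so changes in them were not tested.

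Antigen presentation held 1 call of 17 tested genes (5.88% lower, against 1.73% of all genes), whose median was -0.07 (0.03 with library size only). TAPBP, tapasin, which helps load peptides on MHC class I, had 24.4, 28.8 and 31.4 CPM in vehicle, 25.7 in olaparib 1, 14.6 and 14.7 in radiation, and 15.7, 19.3 and 19 with the combination. The highest irradiated library was below the lowest unirradiated one (-0.78, SE 0.125, adjusted p = 0.000363). CD276, the checkpoint ligand B7-H3, had 39.2, 41.1 and 41.3 CPM in vehicle, 34.3 in olaparib 1, 29.5 and 27.9 in radiation, and 25.5, 31.7 and 31.8 with the combination. It was the only call among 14 checkpoint ligands, or 7.14% (-0.39, SE 0.0999, adjusted p = 0.0316). The call ended without any vehicle library, radiation 1 or 2 or combination 1 (0.0524 to 0.2) and with library size only (0.133).

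The largest changes were taken from named genes that were called, had a mean of 1 CPM or more in either class and did not overlap at either olaparib level, and 1 called gene, which fell by more than 4.2 log2 units from under 1 CPM, was outside these limits. Among the rises, GJA9, a connexin, had 0.158, 0.0952 and 0 CPM in vehicle, 0.157 in olaparib 1, 1.45 and 1.18 in radiation, and 2.38, 0.807 and 1.24 with the combination (3.63, SE 0.705, adjusted p = 0.00301). ARHGEF6, a guanine nucleotide exchange factor (2.25), and CD24, a surface glycoprotein (1.82), were called without each library in turn. PPP4R4 (2.09) lost its call without vehicle 1, olaparib 1, radiation 2 or combination 3 (0.0528 to 0.21) and LINC02897 (1.55) without olaparib 1 (0.101). INHBB, an activin subunit (1.55), lost it without vehicle 3, olaparib 1 or radiation 1 (0.0544 to 0.214), and JAKMIP1 (1.43) without olaparib 1 or radiation 2 (0.101 and 0.0527). Among the falls, MAP7-AS1 (-2.44) was called without each library in turn, but reads of its sense partner cannot be told apart, since no source states strand-aware counting. PAQR9 (-1.42) lost its call without olaparib 1 (0.0982). SLC22A16 (-2.65), a transporter at 0.984 to 1.86 CPM before radiation, lost it without vehicle 1 or 3, either radiation library or combination 3 (0.0501 to 0.208). LPAR4 (-2.51), a lysophosphatidic acid receptor, lost it without vehicle 2, olaparib 1, either radiation library, or combination 1 or 2 (0.0603 to 0.204). ST6GALNAC5 (-1.98), a sialyltransferase, lost it without any single library but combination 1 (0.0622 to 0.214) and with library size only (0.0518).

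Whether the radiation effect differed with olaparib was tested by the interaction. It called 32 of 23878 genes (0.134%), with 1860 at an unadjusted p under 0.05. In all 32, olaparib 1 lay outside the range of the 3 vehicle libraries, and 21 had opposite signs at the 2 levels. RPS16, a ribosomal protein, had 73.2, 67.5 and 73.3 CPM in vehicle, 28.7 in olaparib 1, 41.4 and 56.3 in radiation, and 46.2, 50.1 and 47.0 with the combination. The change with radiation was -0.55 without olaparib and 0.72 with it, a difference of 1.28 (SE 0.185, adjusted p = 0.00177). Of the 32, 7 were ribosomal proteins, and the 6 beside RPS16 had negative differences. RPS27A, a fusion of ubiquitin and a ribosomal protein, had 213, 212 and 221 CPM in vehicle, 244 in olaparib 1, 211 and 184 in radiation, and 136, 139 and 132 with the combination. Its radiation and vehicle libraries were near each other while the combination was far below olaparib 1 (difference -0.72, SE 0.122, adjusted p = 0.0082). For EGR1 the change was -1.87 without and -0.41 with olaparib (difference 1.48, SE 0.262, adjusted p = 0.0151, and not called without vehicle 2, at 0.0533, or radiation 1, at 0.0923). HSPA5, the main chaperone of the endoplasmic reticulum, had 795, 857 and 887 CPM in vehicle, 454 in olaparib 1, 618 and 611 in radiation, and 572, 450 and 548 with the combination. Its difference of 0.67 (SE 0.134, adjusted p = 0.0434) lost its call without vehicle 2 or 3, either radiation library, or combination 1 or 3 (0.0594 to 0.243). Without olaparib 1 the interaction cannot be estimated. With all 12 libraries it called 0 genes (4938 at an unadjusted p under 0.05), while DESeq2 on the 9 called 132 and limma-voom 83. The genes of this paragraph were chosen after their values were seen.

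**Figure D5:**
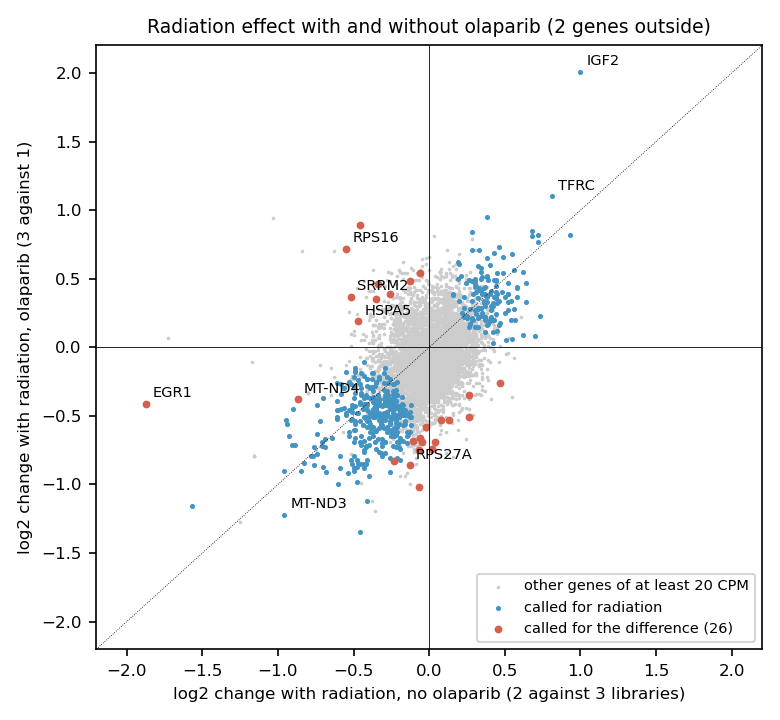
Log2 change with radiation without olaparib (horizontal axis, 2 against 3 libraries) and with olaparib (vertical axis, 3 against 1 library) for genes of at least 20 CPM. Genes called for radiation, which were chosen from these same libraries, have the same sign on both axes. The 26 genes called for the difference, such as RPS16 (-0.55 and 0.72), lie away from the line of equal change.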

How the data were processed

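RNA of SBC5 cells was sequenced as stranded total RNA libraries, per the labels' protocols. The deposited values are estimated counts (expected counts) per gene for 60649 Ensembl IDs in 12 columns, which the authors made with kallisto 0.46.1, per the submitters' processing notes, which also name DESeq2. The sources used here do not give the transcriptome or genome build. Of the deposited values 68.8% were whole numbers (tolerance 1e-06). The 44 pseudoautosomal Y copies were added to their X counterparts (60605 genes left), and estimates were rounded. Symbols came from a gene table (42028 IDs matched), and lengths and types from GENCODE 29.

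In R 4.3.3, edgeR 4.0.16 fitted radiation with olaparib as a covariate to the 9 libraries, with its default count filter on the irradiated and unirradiated classes, TMM factors, robust quasi-likelihood tests and adjustment by Benjamini and Hochberg across every gene tested (threshold 0.05). A second fit added the interaction. The SE was taken as the change divided by the root of the F statistic. Ranges before and after radiation are over the 4 unirradiated and 5 irradiated libraries.

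The members, lists, alternatives and naming rule were chosen with earlier results of these data known. The rule took genes that were called, had a symbol, reached 1 CPM and had libraries apart at each olaparib level: the 8 largest rises and falls, the 5 of smallest p each way at 20 CPM or more, up to 3 called members of each list, and 13 fixed genes whatever their values. Some genes that the rule took are not reported here. Other genes were chosen after their values were seen: MDM4, MT-ATP6 and further mitochondrial genes, the remaining tRNA synthetases and ATF4 list members, ATF4, JUN, EGR1, BRCA1, H2BC3, ISG15, IFI6 and those of the closing section. Alternatives were other scalings, other count filters, DESeq2 1.42.0, limma-voom (limma 3.58.1), other covariates, all 12 libraries, the replicate block, and leaving out libraries or mitochondrial genes. The procedure was tested on simulated data. Libraries of a group differed by more than counting noise (chi-square per degree of freedom 7.54 to 17.83). No pairing by replicate number was seen. Correlations of deviations from the group means were -0.072 to 0.021 between libraries of the same number and -0.051 to 0.072 between others. The 2 radiation libraries deviate from their mean as mirror images, and all genes tested were used, so this check cannot exclude pairing. The promoter search matched genes by symbol.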

Additional observations from a re-analysis of the deposited data

Results flagged for a closer look

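Dixon's test was run on 262 groups of libraries, each group being the irradiated or the unirradiated class. It covered 128 of the genes named, the olfactory receptor sum, and the shares of counts from mitochondrial mRNAs and from MT-RNR1. In 19 groups 1 library stood apart from the others of its class. Chance gives about 1 in 20 for libraries treated alike, but each class here mixes libraries with and without olaparib. A flag on olaparib 1, the only unirradiated library with the drug, cannot be told apart from a drug difference. Olaparib 1 was the low one of the unirradiated libraries for INHBB (0.47 CPM, others 1.08 to 1.14), MT-ND4L (1848, others 2304 to 2391), MT-ND4 (9641, others 13270 to 13821), MT-ND1 (1673, others 2015 to 2065), TXN (93.2), CCN2 (269, others 325 to 335) and EGR1 (21.2, others 44.1 to 45.8). Vehicle 1 was low for CEBPG (18), and vehicle 3 was low for BRCA2 (74.0) and high for MARS1 (29.5, others 24.0 to 24.3) and MT-RNR2 (349739). Among irradiated libraries, radiation 1 was the high one for INHBB (3.11), COX7A2 (43.5), TXN (81.1) and ALDH1A1 (1114, others 863 to 931), and the low one for the olfactory receptor sum (356, others 461 to 501). Combination 1 was low for NQO1 (25.5), combination 3 low for NDUFA1 (18.1, others 21.9 to 23.0), and combination 2 high for EGR1 (21.2, others 12.1 to 13.8). For COX7A2, TXN and ALDH1A1 the high radiation 1 value lay toward the unirradiated libraries, and for all of them it was still below the lowest of these.

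The radiation effect differed between cells with and without olaparib, by edgeR's interaction test over all genes, for 11 of the genes named or listed. The difference, with minus without olaparib, was 1.28 for RPS16, 1.48 for EGR1, 0.67 for HSPA5 and 0.50 for MT-ND4 (-0.87 without, -0.38 with). It was negative for RPS27A (-0.72), RPL9 (-0.77), RPS10 (-0.67), RPS27 (-0.63), EIF4A2 (-0.60), RPS3A (-0.60) and RPS7 (-0.59). EIF4A2 is the second isoform of the helicase of translation initiation, and the others of these are ribosomal proteins, 2 of which had positive values without olaparib (RPL9 0.26 and RPS3A 0.08). Their adjusted p-values were 0.00177 to 0.0469. Each rests on olaparib 1 as the only unirradiated library with the drug.

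The 3 libraries left out carried counts of olfactory receptor genes above those of vehicle (354.7 to 432.6 CPM), at 1896.7 CPM in olaparib 2, 2097.8 in olaparib 3 and 920.2 in radiation 3. They had the lowest total counts of the 12, at 14.3 to 17.7 in units of 1000000.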

How the results depend on the processing

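Counts of genes called for radiation, higher and lower, were 214 and 414. They were 776 and 193 with library size only, 378 and 603 with DESeq2, 275 and 642 without a count filter, 332 and 582 without the olaparib covariate, 5 and 1 with all 12 libraries, and 713 and 438 with all 12 and the olfactory receptor covariate. The libraries without olaparib alone gave 63 and 127. With the replicate number as a block they were 140 and 238 (134 and 234 of them shared). The labels do not say what the numbers mark. Leaving out each library in turn gave 99 to 213 higher and 172 to 605 lower. Fewer libraries or another filter also change which genes are tested. The interaction called 32 genes, and 130 without a count filter, 132 with DESeq2, 83 with limma-voom, 0 with all 12 libraries, 7 with all 12 and the covariate, and 20 with the replicate block. Leaving out each library but olaparib 1 gave 15 to 68. Of the genes named, these turned sign, and XRCC6 alone of them was called. With all 12 libraries XRCC6 was at 0.03 and MT-RNR2 at 0.03. Over libraries left out in turn, ATF4 ranged from -0.02 (without radiation 1) to 0.11 (without radiation 2) and was at -0.03 among libraries with olaparib. MT-RNR1 ranged from -0.84 (without olaparib 1) to 0.03 (without radiation 1) and was at 0.70 among libraries with olaparib. The cause was not tested. The 133 named results include some that were not called over the 9 libraries, such as CDKN1A, MDM2 and ATF4, and had no call to lose. With all 12 libraries 117 lost their call and kept their sign, and XRCC6, which turned sign, lost its call too. With the covariate as well 23 lost their call, with the replicate block 17 and with library size only 13. Without olaparib 1, 46 did among 127 results, which again include some never called. RPS27A's difference lost its call with the replicate block (adjusted p = 0.126), as did HSPA5's (0.172). Lower depth after radiation limits genes under about 1 CPM.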

Other observations

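Some called genes outside the lists, chosen after their values were seen, are given as single genes and say nothing of a group. Among those that rose, NIFK, a nucleolar protein of ribosomal RNA processing, had 62.3 to 71.1 CPM before and 86.1 to 106 after radiation (0.52, SE 0.0781, adjusted p = 0.000142). NOP58, a core protein of box C/D small nucleolar complexes (0.36), and WDR43, of early ribosomal RNA processing (0.35), also rose, but not without olaparib 1 (adjusted p = 0.0616 and 0.0798). DDX21, a nucleolar helicase (0.26), lost its call without any vehicle library, olaparib 1 or radiation 1 (0.0564 to 0.147). The snoRNA host transcript SNHG12 (0.42) lost it without vehicle 3, olaparib 1 or radiation 2 (0.0637 to 0.102), and GAS5 (0.27) without any library but olaparib 1 and combination 2 (0.0514 to 0.211).

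The following genes fell, and each was called without each library in turn. SOX2, a stem cell transcription factor, had 561, 585 and 530 CPM in vehicle, 491 in olaparib 1, 457 and 411 after radiation, and 311, 324 and 314 with both (-0.47, SE 0.0648, adjusted p = 5.26e-05). SOX4, of the same family, fell by 0.50. TMSB4X, which binds actin monomers, had 651, 688 and 681 CPM in vehicle, 650 in olaparib 1, 553 and 471 after radiation, and 355, 350 and 324 with both (-0.60, SE 0.0869, adjusted p = 0.000717). ACTB, cytoplasmic actin, fell by 0.51. MET, the receptor of HGF, had 721 to 778 CPM before and 499 to 622 after radiation (-0.43, SE 0.0632, adjusted p = 0.000135). The connexin GJA1 (-0.62), the glutamate receptor GRIA2 (-0.61), ALDH1A1 (-0.48), the secretogranin SCG2 (-0.69) and the noncoding RNA DNM3OS (-0.86) fell as well.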
